A study of Rattus norvegicus with 7 samples.

Results

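The gene models described here stand around the type 1 vomeronasal receptor (V1R) genes of the rat without being listed among them. They were chosen by position: every model outside the block of V1R models at the head of the authors' annotation whose span lay within 500 kb, edge to edge, of an intact V1R model on the same chromosome. The rule gave 243 of 29406 models outside that block (29630 models in all), namely 187 on chromosome 1, 41 on chromosome 4 and 15 on chromosome 7, and it used no measured value. They are called V1R neighbours below. The files give them Ensembl identifiers only, and 0 of the 243 identifiers could be paired with a symbol, so that each is named by its identifier or its position and no gene function is stated.

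Vomeronasal sensory neurons detect chemical signals through receptors of the V1R and type 2 (V2R) families, and a mature neuron of the V1R class expresses very few V1R genes. V1R genes lie in clusters, and their coding sequence occupies a single exon, whereas V2R genes have several coding exons. Other genes stand between and beside the receptor genes of a cluster. Levels of the models there bear on how much of the transcription comes from models not listed as V1R genes.

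The libraries came from vomeronasal epithelium, the sensory tissue of the vomeronasal organ, of 7 male LEW/Crl (inbred Lewis) rats aged 8 weeks, 1 library per rat, all flushed of blood before dissection and otherwise untreated as far as the labels say. All rats form 1 group, so that comparisons were made among models and along the differences between rats, and p-values measure the spread between these 7 animals. Libraries held 64085829 to 74924005 counts. Defining markers of the tissue other than V1R genes could not be looked up without symbols, but 102 intact V1R models (93.6% of them) were detected. Rat 7 stood apart in its most abundant transcripts: the 10 most abundant models took 40.4% of its counts and 44.6% to 48.0% in the other rats. The mitochondrial share was 2.44% in rat 7, 2.24% in rat 6 and 1.83% to 2.16% in the rest.

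V1R neighbours were transcribed about as often as other models. Detected is used for at least 10 counts in at least 4 of the 7 rats, and 145 of the 243 neighbours (59.7%) met this, against 56.3% of the 29406 models outside the V1R block. In the next ring, 500 kb to 1 Mb from an intact V1R model, 72 of 138 models (52.2%) were detected. Of the remaining neighbours, 53 had some counts and 45 had none in any rat. A count of 0 allows 3 counts, which corresponds to 0.0400 to 0.0468 CPM depending on the rat, or to 0.00622 CPM when the 7 libraries are summed. CPM is the count scaled to the library total, and 1 CPM stands for 64.1 to 74.9 counts in these libraries. The number of neighbours with at least 10 counts lay between 143 and 147 in each rat.

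Levels were compared between models per length, as RPKM (CPM per kilobase of exon). The median RPKM of all 243 neighbours was 1.17, against 0.686 over all models outside the block and 0.246 in the next ring. Among detected models the order of the first pair was the other way round, with 3.67 in neighbours (quartiles 1.71 and 12.2) and 6.33 over all models (2.05 and 15.1). These medians are descriptions without a test, since models of a locus are not independent replicates. In the plot of level against distance the detected neighbours spread over the whole 500 kb.

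**Figure D1:**
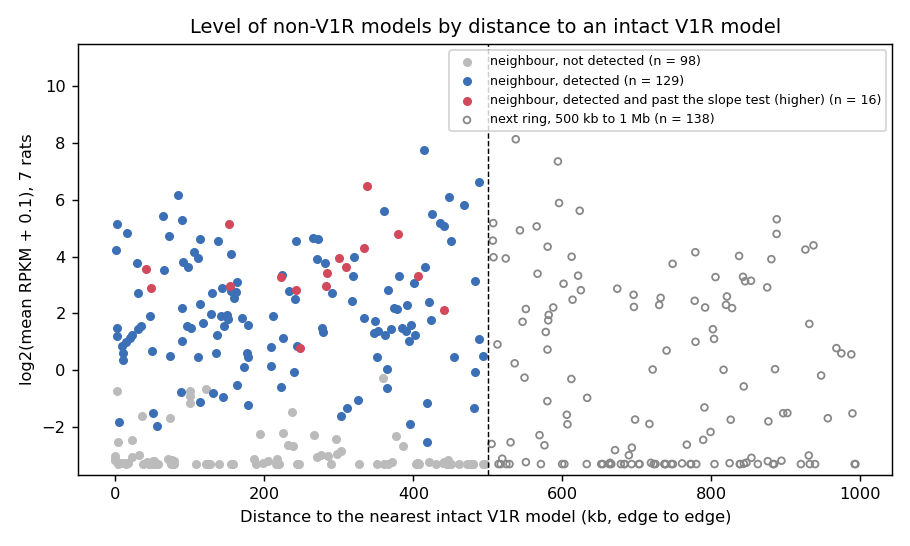
Level of each V1R neighbour (filled points) and of each model in the next ring (open points), as log2(mean RPKM + 0.1) over 7 rats, against the distance in kb to the nearest intact V1R model; the dashed line marks 500 kb. Of the 243 neighbours, 145 were detected (blue and red), and the 16 in red passed the slope test described in the text.

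Together the neighbours took 0.329% ± 0.0268 of all counts (SD, n = 7), 6.44 ± 0.689 times the counts of all intact V1R models. The intact V1R models cover coding length only, so that V1R reads in untranslated ends (UTRs) are not among their counts. Rat 6 had the lowest share with 0.297% (Wilson 95% interval 0.296% to 0.299%), followed by rat 1 with 0.299%, and rat 7 the highest with 0.375% (0.373% to 0.376%). In whole tissue, more cells of a type and more RNA per cell cannot be told apart. These intervals cover counting error only. With the 10 most abundant models left out of each total, the lowest share was again in rat 6 (0.562%) and the highest in rat 7 (0.629%). The 10 most abundant neighbours made up 39.0% of the summed level and 15 neighbours made up 50%.

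The highest neighbour per length was ENSRNOG00000019453 at chr1:72828981-72833277 (RGSC3.4, 6 exons), which stood inside a V1R cluster but 414 kb from its nearest intact receptor model. Its level was lowest in rat 6 at 155 CPM, had a median of 165 CPM and was highest in rat 7 at 177 CPM, or 218 ± 9.87 RPKM (SD, n = 7). Its counts were whole in every rat, that is, they showed no counted read shared with another place in the genome. In every rat this model was above all other neighbours per length. ENSRNOG00000005890 at chr4:96904322-96921170 followed with 130 to 141 CPM and 98.2 ± 3.07 RPKM (SD, n = 7). It lay 488 kb from the isolated intact V1R model at chr4:96415882-96416799.

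The third was a 4-exon model at chr1:67745354-67749412, and it varied far more: 65.7 CPM in rat 1, a median of 88.4 CPM and 104 CPM in rat 7, with 90.6 ± 14.4 RPKM (SD, n = 7). Its range over rats overlapped that of the second model, so that their order was not the same in every rat. ENSRNOG00000011282 (chr1:58442220-58461442, 15 exons) came next at 71.4 ± 3.75 RPKM and ENSRNOG00000043328 (chr1:72889349-72891734, 6 exons) at 68.4 ± 2.33 RPKM (SD, n = 7 each), and the former was higher than the latter in each of the 7 rats. ENSRNOG00000007769 (chr7:16193115-16211225, 4 exons) had 56.6 ± 7.98 RPKM, with 57.2 CPM in rat 1, a median of 75.2 CPM and 86.2 CPM in rat 7. The next 5 lay between 36.0 and 48.6 RPKM and had 4 to 19 exons.

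The last of the 12 highest, ENSRNOG00000030129 at chr1:71753123-71753228, was of another kind. It has 102 exon bases, and reads of 100 nucleotides were counted on an overlap of 1 base, so that its 35.5 ± 1.61 RPKM stand for only 3.62 ± 0.164 CPM (SD, n = 7), some of them from shared reads. It lay 2.64 kb from an intact V1R model on the opposite strand. The plot of the 12 highest neighbours shows rats 1 and 6 as the lowest in the third, the sixth, the ninth and the tenth model.

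**Figure D2:**
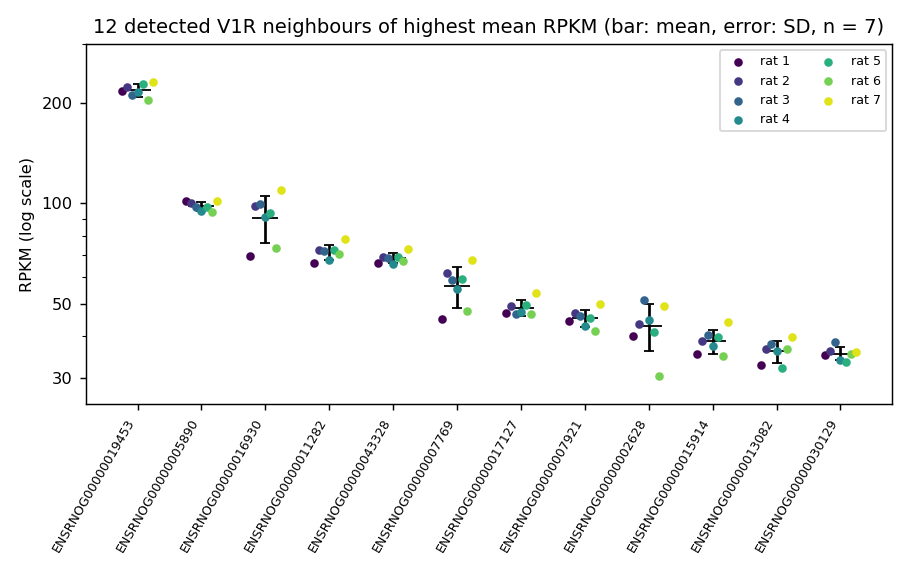
RPKM on a log axis of the 12 detected V1R neighbours of highest mean RPKM, with a point for each of 7 rats, the mean as a bar and the SD as the error. Means run from 218 RPKM for ENSRNOG00000019453 to 35.5 RPKM for ENSRNOG00000030129.

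Detection followed the build of the models. Of 126 neighbours with 5 or more exons 94 were detected (74.6%), of 71 with 2 to 4 exons 42 (59.2%) and of 46 with a single exon 9 (19.6%). Over all models outside the V1R block the shares were 82.7%, 48.6% and 16.8%. Single-exon models were 46 of the 243 neighbours (18.9%) and 27.7% of all models. Of 27 neighbours under 200 bases, 16 had no count in any rat and 1 was detected, ENSRNOG00000030129. The libraries were polyA-selected, and short RNAs without a polyA tail are not measured that way. Among the silent ones were 7 models of 71 to 82 bases packed between 64272844 and 64275006 on chromosome 1. Of the 216 neighbours of 200 bases or more 66.7% were detected, against 65.8% of all models of that size.

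Some neighbours were annotated with very short gaps between exons. In 52 of the 243 at least 1 gap was under 30 bases, shorter than introns usually are. With such gaps closed, 69 neighbours had a single exon, and 18 of them (26.1%) were detected. The 23 that became single-exon models this way included 9 detected ones. The highest of these per length after ENSRNOG00000030129 was ENSRNOG00000022750 at chr1:65154732-65156212, at 12.3 ± 0.973 CPM (SD, n = 7). A model at chr1:67168552-67170005 is annotated with 9 exons in 1437 bases, all of which join when the gaps are closed, and had 2.72 ± 0.451 CPM (SD, n = 7). Both held shared reads, so that their levels are uncertain.

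A single neighbour had the build of an intact V1R model, with 1 exon, a length divisible by 3 and a size within the range of those models: ENSRNOG00000006436 at chr4:86171019-86171942, 924 bases long. Its level was 15.8 CPM in rat 6, 16.8 CPM in the median rat and 20.6 CPM in rat 7, or 18.7 ± 1.74 RPKM (SD, n = 7). For comparison, the median detected intact V1R model had 3.36 RPKM, with an upper quartile of 8.04. It stands 0.675 kb from the intact V1R model at chr4:86172617-86173516, on the opposite strand, and that model had no count in any rat. The counting used strand, so that reads of the former were not counted on the latter. Some of its reads were shared with other places. Outside the V1R block 1279 models had this build, of which 155 (12.1%) were detected.

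Neighbours up to 100 kb from an intact V1R model were lower in the median than those farther away. None of the 3 neighbours whose span overlapped an intact V1R model was detected, and each of them had 0 to 3 counts in every rat. At up to 100 kb 34 of 64 neighbours were detected (53.1%), between 100 and 250 kb 48 of 73 (65.8%) and between 250 and 500 kb 63 of 103 (61.2%). The median RPKM of detected neighbours in these bands was 2.84, 3.54 and 4.83, and that of all neighbours was 0.459 up to 100 kb and 1.27 between 250 and 500 kb. Across the 145 detected neighbours Spearman's rho between level and distance was 0.066, and between the level of a neighbour and that of its nearest intact V1R model 0.036. These are descriptions over models, and the 243 neighbours share 40 nearest V1R models. In 96 of the 243 the neighbour's RPKM was above that of its nearest intact V1R model, which is coding length without UTRs.

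The 10 nearest detected neighbours that did not overlap a V1R model lay 0.675 to 15.9 kb from it. Most of them were low, between 0.177 and 2.69 RPKM. The exceptions were ENSRNOG00000006436, ENSRNOG00000030129 and ENSRNOG00000006646 (chr4:87116146-87186828, 6 exons). The last lay just outside a chromosome 4 cluster and had 71.5 CPM in rat 6, a median of 83.5 CPM and 89.6 CPM in rat 7, or 28.3 ± 2.32 RPKM (SD, n = 7). Its counts were whole in every rat.

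By count, and with no test, neighbours between the outermost intact V1R models of a locus were detected more often than those on the flanks and were lower where detected. A locus here is a run of intact V1R models whose 500 kb windows touch. Between the outermost models 79 of 110 neighbours were detected (71.8%) with a median of 3.29 RPKM among the detected, and on the flanks 66 of 133 (49.6%) with 5.87 RPKM. A single locus holds 51 of the 110. Without it, a split chosen after the values were seen, the counts were 45 of 59 (76.3%) and 66 of 126 (52.4%), and the medians 2.89 and 5.87 RPKM. Of the neighbours on the flanks 36 had no count in any rat, against 9 of those inside. Single-exon models made up 23.3% of the neighbours on the flanks and 13.6% of those inside. A locus with a lone intact V1R model has flank neighbours only. Position was thus not separated from build or locus. On the strand opposite to the nearest intact V1R model 80 of 125 were detected, and on the same strand 65 of 118.

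The rule yields 10 loci. In all 10 the neighbours together exceeded the intact V1R models of the locus, by 3.48 to 28.7 times in summed CPM. The V1R models were again counted on coding length only. The largest sum, 880 ± 77.6 CPM (SD, n = 7), came from 44 neighbours, 32 of them detected, around 22 intact V1R models between 71096061 and 73699919 on chromosome 1. Next were 58 neighbours, 34 detected, around 8 intact V1R models between 66983686 and 68177507 on chromosome 1, at 629 ± 56.5 CPM. The locus between 56587323 and 59831046 on chromosome 1 had 29 neighbours, 19 detected, and 466 ± 36.5 CPM, of which 33.5% came from ENSRNOG00000011282. The chromosome 4 locus from 85979746 to 87100294 had 20 neighbours, 12 detected, and 402 ± 19.9 CPM, with the highest median of detected neighbours at 14.6 RPKM.

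In the other loci of several V1R models the sums were lower. Around 15 intact V1R models between 123811714 and 124819364 on chromosome 4, 9 of 14 neighbours were detected, and their sum of 262 ± 31.3 CPM (SD, n = 7) was 59.8% ENSRNOG00000017003. Around the 3 intact models on chromosome 7 (15551964 to 15725571) 7 of 15 were detected, with 229 ± 20.9 CPM. Around 8 intact models between 62590085 and 63287126 on chromosome 1, 13 of 18 were detected, with 92.9 ± 10.6 CPM, and the highest per length, at chr1:62176032-62208951, had 9.79 RPKM. The last 3 loci hold a lone intact V1R model each. The one on chromosome 4 at 96415882 had 157 ± 5.41 CPM in 7 neighbours, 86.5% of it in ENSRNOG00000005890. The one on chromosome 1 at 49437215 had 95.4 ± 17.0 CPM in 14 neighbours, 4 detected. The one on chromosome 1 at 64752662 had 76.5 ± 7.90 CPM in 24 neighbours, 11 detected (SD, n = 7 each).

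The loci differed in how far the rats varied. The coefficient of variation of the neighbours' sum was 3.44% around the lone chromosome 4 model and 17.8% around the lone model at 49437215 on chromosome 1, where rat 6 had 73.2 CPM, rat 1 had 77.8 CPM and rat 7 had 119 CPM. In the plot of sums by locus, rat 7 is the highest in each locus on the CPM scale. CPM is relative to the library total. The 10 most abundant models took 40.4% of that total in rat 7 and 44.6% to 48.0% in the others. The part of this in the order of the rats was not tested.

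**Figure D3:**
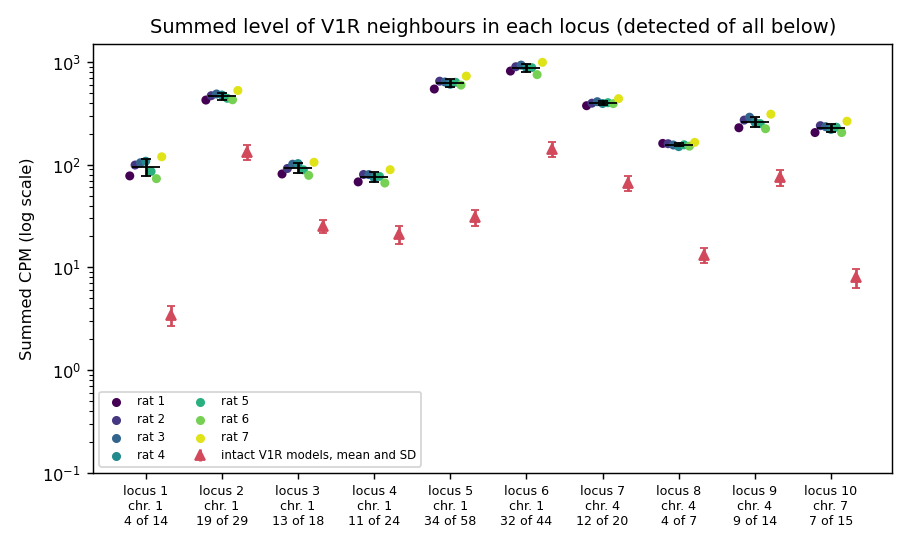
Summed CPM on a log axis of the V1R neighbours in each of 10 loci, with a point for each of 7 rats and the mean and SD in black, beside the summed CPM of the intact V1R models of the locus (red triangles, mean and SD). Below each locus stand its chromosome and the number of detected neighbours of all. The neighbours' sums run from 76.5 CPM in locus 4 to 880 CPM in locus 6 and lie above the V1R sums in all 10 loci.

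Whether neighbours varied together with the receptors was examined along the differences between rats. The summed level of all intact V1R models ran from 383 CPM in rat 6 and 442 CPM in rat 1 to 639 CPM in rat 7, a 1.67-fold range. For every detected model outside the V1R block, edgeR's quasi-likelihood test gave a slope, the log2 change of the model per unit of log2 summed V1R CPM.

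Of the 145 detected neighbours, 16 (11.0%) rose with the V1R sum at a Benjamini-Hochberg adjusted p under 0.05 over all 16552 models tested, against 4.99% of all models. None fell, against 2.91% of all models. At an unadjusted p under 0.05, 41 neighbours rose and 6 fell. The share that rose was 28.3%, and of all models 12.7% rose and 12.6% fell. With DESeq2, 24 rose and 2 fell, against 7.42% and 5.46% of all models. The slope was above 0 in 96 of the 145 neighbours (66.2%) and in 47.9% of all models tested, with medians of 0.16 and -0.02. In the next ring 7 of 72 models rose (9.72%) and 1 fell. At an unadjusted p under 0.05, 20 of these 72 rose and 5 fell. Slopes were above 0 in 61.1% of them, so the rise was not particular to the neighbours. Whether the neighbours differ from other models in this was not tested.

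The edgeR calls were lost without rat 6, the rat with the lowest V1R sum. Without this rat 0 of 144 neighbours and 0 of 16452 models passed in edgeR. At an unadjusted edgeR p under 0.05, 29 neighbours (20.1%) rose and 6 fell. Of all 16452 models 1941 (11.8%) rose and 2076 fell at that threshold. All 16 neighbours called with 7 rats were still under 0.05 in unadjusted edgeR p. Their choice by a fit that held the remaining rats favours low p-values and positive slopes here. The 16 slopes then lay between 0.39 and 1.13, all above 0, with adjusted p-values from 0.0616 to 0.176; over the 13 alternatives run the adjusted p-values of the 16 lay between 4.51e-09 and 0.176. Without rat 3, 4 neighbours rose and 0 fell, against 1.74% and 0.481% of all models. Without rat 2, 9 rose and 0 fell, against 3.24% and 1.36%. Of the 16, 14 were lowest in rat 6 and 2 in rat 1, and all 16 were highest in rat 7. The 16 were picked by a rise with the V1R sum, lowest in rat 6 and highest in rat 7, which favours this order. The mitochondrial share was highest in rat 7 (2.44%), followed by rat 6 (2.24%) and rat 1 (2.16%). The part of the abundant models named above was lowest in rat 7. Their part in the slopes was not tested.

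**Figure D4:**
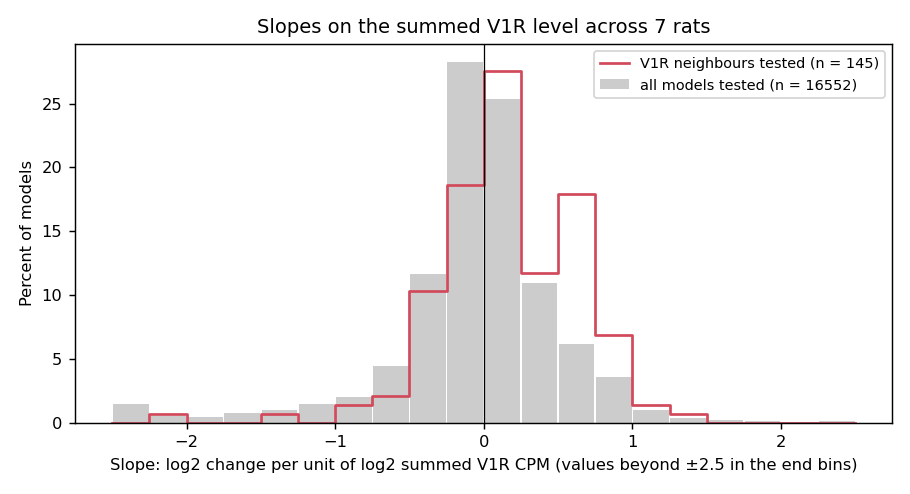
Distribution of the slopes on the summed V1R level across 7 rats, in percent of models, for all 16552 models tested (grey bars) and for the 145 detected V1R neighbours (red line). The neighbours have more slopes between 0.5 and 1 than all models, with medians of 0.16 and -0.02.

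The lowest adjusted p belonged to ENSRNOG00000017228 at chr4:123730288-123770975, a 16-exon model 40.7 kb from an intact V1R model. It had 19.0 CPM in rat 6, a median of 26.1 CPM and 31.7 CPM in rat 7, and a slope of 0.79 (SE 0.09, edgeR adjusted p = 0.00955). Its counts were whole in every rat. In the same locus ENSRNOG00000017003 (chr4:123395675-123432697, 33 exons), the most abundant neighbour there, had 125 CPM in rat 6, a median of 152 CPM and 190 CPM in rat 7. Its slope was 0.62 (SE 0.08, edgeR adjusted p = 0.0105), and its counts were whole as well.

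The other 14 lay on chromosome 1, except for a 6-exon model at chr7:16131618-16134224. Of these, 4 lay between 72658004 and 73187418 in the locus with the largest sum, with models that did not pass among them. The most abundant of them, at chr1:73171753-73187418 with 5 exons, had 62.6 CPM in rat 6, a median of 87.2 CPM and 99.6 CPM in rat 7 (slope 0.73, SE 0.13). The model at chr1:73040661-73055646 had 19.1 CPM in rat 6, a median of 26.8 CPM and 31.9 CPM in rat 7 (slope 0.79, SE 0.10). Of all 16, 15 had 5 or more exons, and 12 held shared reads. Of the 145 detected neighbours 94 had 5 or more exons and 75 held shared reads. Among all models, 826 rose, and 665 of those had 5 or more exons. When the test was run only on models with whole counts, 4 of 70 neighbours rose (5.71%) and 0 fell, against 4.99% and 3.48% of all such models. With the V1R sum scaled by TMM, 19 rose and 1 fell, against 4.79% and 3.3% of all models.

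**Figure D5:**
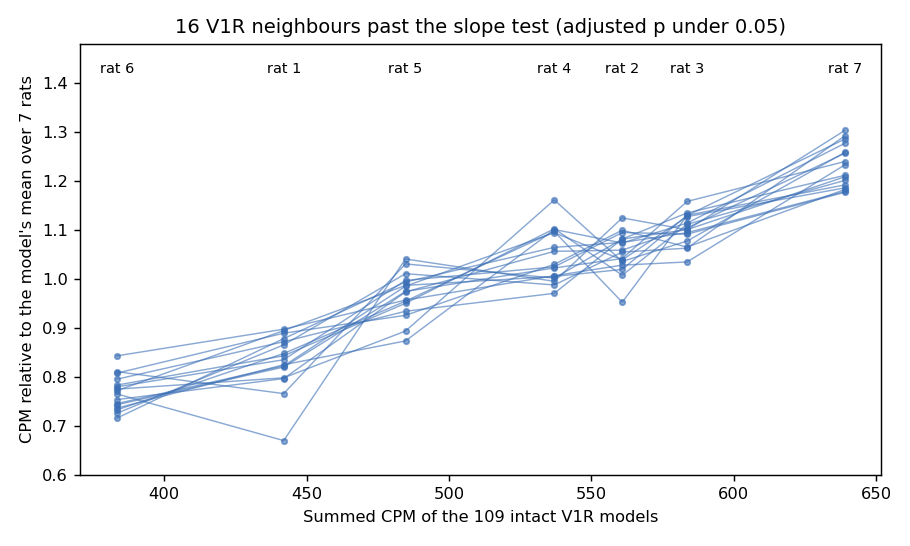
CPM of each of the 16 V1R neighbours that rose with the V1R sum, divided by the model's own mean over 7 rats, against the summed CPM of all intact V1R models; each line is a model and each point a rat. Rat 6, at 383 CPM, is lowest in 14 of the 16, and rat 7, at 639 CPM, is highest in all 16. The choice of models by their slope favours this order.

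For the 10 of lowest adjusted p, the correlation of log2 CPM with the log2 V1R sum over the 7 rats was also computed, on the same values that chose them, together with the 2 neighbours of lowest p among negative slopes. Pearson's r of the 10 lay between 0.948 and 0.986 and Spearman's rho between 0.893 and 1. These are descriptions without a p, since the models were picked by the slope on the same rats. Both values of a rat are also divided by the same library total, so that a shift in it moves them together. Without the 2 rats farthest from the median V1R sum on the log2 scale, rats 1 and 6, r of the 10 lay between 0.812 and 0.988 over the remaining 5 rats.

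No negative slope passed in edgeR with all 7 rats. ENSRNOG00000017959 (chr4:124661802-124671607, 12 exons, between V1R models of the same locus as ENSRNOG00000017228) had 2.62 CPM in rat 2, a median of 4.34 CPM and 6.37 CPM in rat 6. Its slope was -1.40 (SE 0.42, edgeR adjusted p = 0.0836), with r = -0.667 and rho = -0.643. It passed in DESeq2 (adjusted p = 0.0201), in edgeR with the V1R sum scaled by TMM (adjusted p = 0.0335) and in edgeR without rat 7 (adjusted p = 0.0390), and over all alternatives its adjusted p lay between 0.0201 and 0.298. ENSRNOG00000006893 (chr4:87366273-87390223) had 54.9 CPM in rat 2, a median of 63.7 CPM and 78.9 CPM in rat 6, with a slope of -0.51 (SE 0.16, edgeR adjusted p = 0.0982). It passed in DESeq2 (adjusted p = 0.0394), and without rat 6 its slope was -0.21 (edgeR adjusted p = 0.569), the ends of the range over all alternatives. Its r of -0.455 turned to 0.498 without rats 1 and 6, and its rho was -0.214. Both had their highest value in rat 6.

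A build recurred among the neighbours that rose: 6 exons, 2500 to 2700 exon bases and a length divisible by 3. This set was chosen after the values were seen and gets no test. It has 10 neighbours, of 2559 to 2601 bases, all on chromosome 1, and all 10 were detected, at 8.84 to 50.7 CPM. All had a slope above 0 (0.47 to 0.88), and 6 of the 10 passed the test. The files do not say which family these models belong to.

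The most abundant of the set, at chr1:49771554-49785337, had 39.3 CPM in rat 6, a median of 52.6 CPM and 63.9 CPM in rat 7. It stands with 2 others, at chr1:49184902-49214197 and chr1:49591810-49631453, around the lone V1R model at 49437215. These 3 are the passing neighbours of the locus whose sum varied most between rats. Their means of 50.7, 24.8 and 19.7 CPM are nearly all of that sum (95.4 CPM). The variation of the sum and the 3 calls are thus not separate observations. A further 2, at chr1:60140947-60184439 and chr1:60272155-60301547, lie near each other on a flank, and the sixth, at chr1:57360718-57380507, lies between V1R models and alone among the 10 had whole counts in every rat. The 4 that did not pass had edgeR adjusted p-values from 0.0653 to 0.229. Elsewhere in the genome 44 models had this build, of which 41 were detected, 16 rose and 2 fell.

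Variation between rats was described by the tagwise biological coefficient of variation from edgeR. Its median was 11.9% in the 145 detected neighbours (quartiles 9.23% and 15.6%) and 10.4% over all detected models outside the block. The largest value, 70.3%, belonged to ENSRNOG00000038445 at chr1:72833803-72836472, with 0 counts in rat 5, a median of 10 and 20 counts in rat 1, so that few counts stand behind it. Next was ENSRNOG00000042461 (chr1:73876515-73892566), at 46.8%, with 0.512 CPM in rat 4, a median of 1.15 CPM and 2.64 CPM in rat 5. Rats 5 and 7 were high in this model and the other 5 low, with a gap between them. The following 3 had 28.1% to 29.5%, among them ENSRNOG00000017959.

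At the edge of the rule, the neighbours farthest from a V1R model were ENSRNOG00000042719 (chr1:60324913-60329358) at 494 kb with 1.71 ± 0.284 CPM (SD, n = 7) and 2 models without a count at 494 and 497 kb. Just outside lay a model at 505 kb with 0.00852 CPM and a pair at 507 and 507 kb with 58.7 ± 8.60 and 54.3 ± 5.12 CPM (SD, n = 7).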

How the data were processed

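Vomeronasal epithelium of 7 rats (1 library each, polyA-selected, stranded single-end reads of 100 nucleotides, per the labels' protocols) was analysed. Per the submitters' processing notes, STAR 2.7.1a aligned the reads and featureCounts 1.6.5 assigned them (version 1.6.3 per the file headers). The authors deposited estimated counts for each gene model, neither depth- nor length-scaled. Per the file headers, exons were counted by strand (setting 2), with an overlap of 1 base, no minimum mapping quality (0) and multi-mapped reads as fractions, on Ensembl release 67 (RGSC3.4) extended by the authors. Positions follow that build. A RefSeq gene table at hand (GRCr8, 47357 genes) pairs 0 Ensembl identifiers with symbols, so that symbols, functions and sequences are not used here.

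CPM and RPKM were computed from each rat's total, where 1 CPM is 64.1 to 74.9 counts. Slopes were fitted with edgeR 4.0.16 (R 4.3.3; TMM, quasi-likelihood test, counts rounded) on log2 summed intact V1R CPM, for detected models outside the V1R block, since the covariate is made from that block. The SE is the slope divided by the square root of the test's F. Exact permutation p-values of the correlations with the V1R sum were computed but are not given, since the slope test on the same rats chose the models. DESeq2 1.42.0 was an alternative. The fit was tested on simulated data. Python 3.11.15, numpy 2.4.6, scipy 1.17.1, pandas 2.3.3 and matplotlib 3.10.9 did the rest.

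The models and comparisons were chosen with earlier results of these data known. Models were named by rule: the 12 highest per length, the highest of each locus, those overlapping an intact V1R model, the 10 of lowest adjusted slope p in each direction (or 2 where none passed), the 5 most variable, the 3 on either side of the distance limit and the 10 nearest.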

Additional observations from a re-analysis of the deposited data

Results flagged for a closer look

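Dixon's test, applied to 52 values, picked out 2 in which 1 animal lay apart from the rest, both times rat 7 on the high side; by chance it would do so in about 1 of 20. ENSRNOG00000017127 (chr1:67768597-67770834) had 82.5 CPM in rat 7 and 71.2 to 75.8 CPM in the others, a gap of 0.592 of the range. ENSRNOG00000006436 had 20.6 CPM in rat 7 and 15.8 to 17.6 CPM in the others, a gap of 0.617 of the range. CPM is relative to the total, of which the 10 most abundant models took the smallest part in rat 7; its part in these values was not tested.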

How the results depend on the processing

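The share of neighbours detected, 59.7%, was 50% with whole counts only (a filter that 0 counts always pass) and 50.7% within 100 kb, and lay between 59.3% and 59.7% with each rat left out. Their median log2(RPKM + 0.1), 0.34, became 1.12 with a pseudocount of 1, -1.34 with whole counts only, -1.52 within 100 kb, -0.32 within 1 Mb and 0.83 for models of 200 or more bases, and lay between 0.29 and 0.39 with each rat left out. Their share of counts, 0.329%, became 0.604% without the 10 most abundant models in the total, 0.138% with whole counts only, 0.0784% within 100 kb and 0.488% within 1 Mb, the total or the number of models being changed; it lay between 0.322% and 0.334% with each rat left out. The 16 neighbours that rose became 4 with whole counts only (70 tested) and 41 at an unadjusted p, and 0 to 17 with each rat left out; DESeq2 called all 16 of them. None fell in edgeR, against 2 in DESeq2, 1 with the V1R sum on the TMM scale, 6 at an unadjusted p and 0 to 1 with each rat left out. Over all models 481 fell in edgeR and 887 in DESeq2. The cause of these changes was not tested where the construction does not give it. The median variation of 11.9% lay between 10.1% and 12.8% with each rat left out. Slopes of 12 named models lost the call in 18 alternatives (10 without rat 6, 6 without rat 3, and 1 each without rats 2 and 7), gained it in 4 (the negative slopes of ENSRNOG00000017959 and ENSRNOG00000006893) and reversed in 0. Alternatives on unadjusted p, the TMM scale, closed gaps and a minimum of 200 bases were chosen after seeing the data. No paired analysis was possible because all rats form a single group.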
